A study of Mus musculus with 15 samples.

Results

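Myl3 and Tnnt2, a pair of genes best known from striated muscle, were followed in RNA sequencing libraries of mouse uterine epithelium. They were chosen by gene name and are 2 of the 28269 genes in the deposited tables. Both are listed in the tables of all 15 libraries. They were chosen with results of these data in view, so their own levels are given as a description, with no test. Which of the values guided the choice is not recorded, and every comparison among the 5 groups is treated as used.

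Myl3 encodes an essential light chain that binds the neck of the myosin heavy chain in the ventricle and in slow skeletal muscle. Tnnt2 encodes cardiac troponin T, the subunit that ties the troponin complex to tropomyosin on the thin filament. In a working sarcomere the myosin motors of the thick filament pull on actin when calcium binds troponin C (Tnnc1, Tnnc2) and relieves the inhibition by troponin I (Tnni1, Tnni2, Tnni3). Epithelial cells build no sarcomeres and use the broadly expressed light chains and tropomyosins instead. A transcript of a sarcomeric gene in such cells says nothing of its protein or of a filament.

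The RNA was taken on day 4 from the lining of the uterine cavity, the luminal epithelium (LE), or from the epithelium of the uterine glands (GE). The groups were wild-type LE, wild-type GE, E-OEX LE, E-OEX GE and U-OEx LE, with 3 libraries in each. The labels give E-OEX and U-OEx the same genotype, overexpression of Notch1, a receptor that acts on its target genes once its cleaved part has joined the DNA-binding protein RBPJ. They say neither what these abbreviations stand for nor what drives the overexpression, and a strain, an age and a possible pooling of animals are not given in the sources used here. No label says whether replicates were separate animals, so the spread between libraries may be technical. A wild-type library held 3818041 to 4797424 reads in listed genes, an E-OEX library 1980800 to 3494859 and a U-OEx library 13541644 to 14981505. The wild-type and E-OEX tables list 6414 and 4903 genes that had been selected for differing between GE and LE, against 27946 genes in the U-OEx tables. The GE preparations held many reads of other cells. The summed scaled count of 8 stromal markers was 34625 to 100504 in GE of the wild type and 76879 to 91308 in GE of E-OEX, against 369 to 7743 in the 9 LE libraries. The summed count of 5 markers of glandular epithelium, Foxa2 and Lif among them, was 21022 to 28652 in wild-type GE, 4392 to 5412 in E-OEX GE and at most 1388 in LE, with every GE library above every LE library. In such bulk samples fewer cells of a type and less RNA per cell cannot be told apart.

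The promoters of both genes are shown because both hold matches to the M-CAT word, the recognition word of the TEAD factors that was described in the cardiac troponin T promoter. The sequences are RefSeq's (build GRCm38.p6) and cover the 250 bases before the start, 5′ to 3′ on the plus strand. Myl3 is at chr9:110763428-110763677 and Tnnt2, at the first of its 2 RefSeq starts, at chr1:135836084-135836333. The GENCODE M21 annotation starts Myl3 further upstream, at chr9:110741861, so the printed Myl3 window lies within that span. Capitals mark matches on either strand to the M-CAT word (CATTCC), the CArG box bound by serum response factor, and a GATA word (AGATAA).
Myl3: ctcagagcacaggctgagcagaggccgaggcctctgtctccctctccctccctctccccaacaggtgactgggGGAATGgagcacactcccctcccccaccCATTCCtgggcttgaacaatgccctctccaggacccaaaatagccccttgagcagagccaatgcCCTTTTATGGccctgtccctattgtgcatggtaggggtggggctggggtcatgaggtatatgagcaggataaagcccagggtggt
Tnnt2: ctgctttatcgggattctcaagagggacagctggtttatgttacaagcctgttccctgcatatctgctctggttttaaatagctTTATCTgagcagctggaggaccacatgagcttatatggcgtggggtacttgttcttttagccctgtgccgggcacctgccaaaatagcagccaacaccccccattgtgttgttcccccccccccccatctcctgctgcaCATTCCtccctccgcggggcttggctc

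Myl3 holds M-CAT words 177 to 172 bases before the start, on the minus strand, and 149 to 144 bases before it, on the plus strand. Its CArG box lies 85 to 76 bases before the start. Tnnt2 holds 1 M-CAT word, 27 to 22 bases before the start, and a GATA word on the minus strand, 166 to 161 bases before it. The window at the other RefSeq start of Tnnt2, not printed, held none of the M-CAT, CArG and GATA matches. Over 32851 windows of the same length, 12.6% held an M-CAT word, 1.47% a CArG box and 9.99% the GATA word. The RBPJ word GTGGGAA, the DNA word of Notch signalling, had no match in any of the Myl3 and Tnnt2 windows and was in 5.42% of all windows. The MEF2 box and the TATA word TATAAA, also searched for, had no match there either and were in 2.92% and 12.4% of all windows. The E-box word CANNTG, not marked, matched in each Myl3 and Tnnt2 window and in 66.2% of all windows. These are matches of letters and show neither binding nor its absence.

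Myl3 was highest in wild-type LE and had no read in both Notch1-overexpressing LE groups. The wild-type LE libraries held 72, 39 and 41 reads of Myl3. No read of Myl3 was counted in the 3 E-OEX LE libraries or in the 3 U-OEx LE libraries. A count of 0 allows up to 3 reads, in U-OEx libraries of 13541644 or more reads in listed genes. The wild-type GE libraries held 5, 3 and 5 reads and the E-OEX GE libraries 4, 6 and 7. All 3 wild-type LE libraries therefore lay above the other 12, and the GE groups overlapped each other.

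Tnnt2 was also high in wild-type LE, but it stayed detectable in every group and had a second high group, E-OEX GE. The wild-type LE libraries held 84, 162 and 80 reads and the wild-type GE libraries 3, 9 and 9. The E-OEX LE libraries held 18, 23 and 9 reads, against 101, 47 and 54 in E-OEX GE. In U-OEx LE the counts were 17, 42 and 31. The order of LE and GE was thus opposite in the wild type and in E-OEX, with no overlap between the epithelia in either genotype. In the same directions 40.0% of all listed genes in the wild type and 60.5% in E-OEX had no overlap, in tables selected for such differences.

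**Figure D1:**
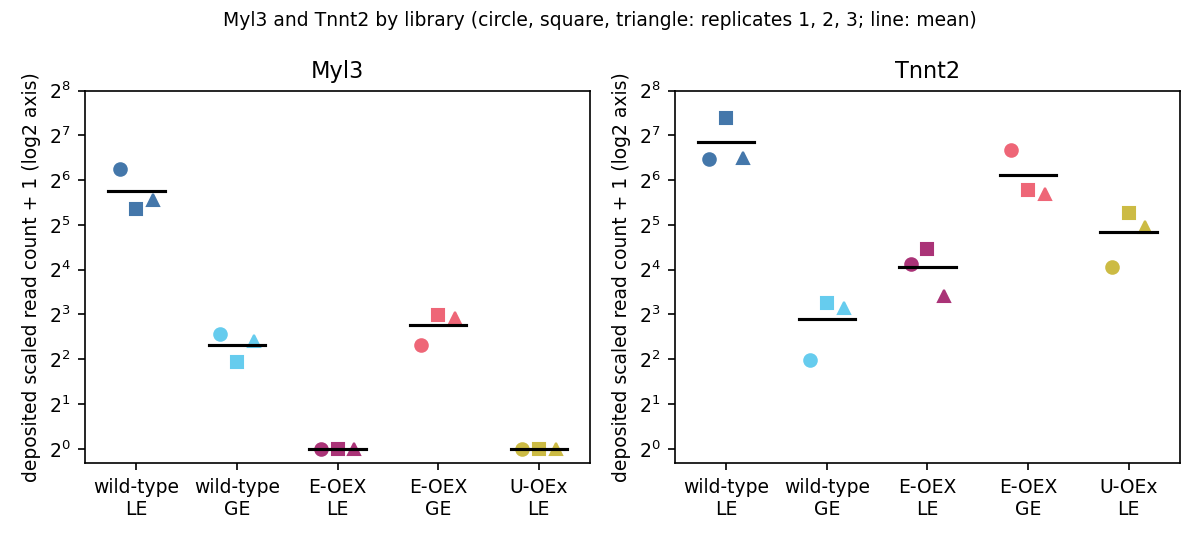
Deposited scaled read count plus 1 of Myl3 (left) and Tnnt2 (right) on a log2 axis in the 5 groups, with 1 point per library and a line at the mean of 3. Myl3 was at 0 in all 6 libraries of E-OEX LE and U-OEx LE, while Tnnt2 was high in LE of the wild type and in GE of E-OEX.

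On the deposited scale, in which each library's reads are divided by 1 factor, Myl3 averaged 53.4 ± 18.5 (SD, n = 3) in wild-type LE, 4.01 ± 1.05 in wild-type GE and, in GE of E-OEX, 5.82 ± 1.58. Tnnt2 averaged 114 ± 44.9 in wild-type LE, 6.41 ± 3.05 in wild-type GE, 15.7 ± 5.63 in LE of E-OEX, 68.6 ± 28.2 in GE of E-OEX and 27.6 ± 11.0 in LE of U-OEx. Per kb of annotated exon the order of the genes in wild-type LE turned, with a level of 26.1 ± 9.07 for Myl3 and 14.7 ± 5.79 for Tnnt2, which has the longer exonic length (7.752 against 2.044 kb). To set all groups on 1 scale, the reads of the 2819 genes listed everywhere were rescaled together with TMM. This method assumes that most of these genes do not change. They were listed for differing between GE and LE, so the assumption is not met where GE is set against LE. Tnnt2 was then at 169 ± 87.6 in wild-type LE, 46.1 ± 22.7 in E-OEX GE, 38.3 ± 16.0 in U-OEx LE, 21.2 ± 10.4 in E-OEX LE and 5.48 ± 2.45 in wild-type GE. In that order E-OEX GE overlapped U-OEx LE and U-OEx LE overlapped E-OEX LE, so these neighbours did not differ beyond their spread. On this rescaled order, which sets GE against LE, wild-type LE lay wholly above E-OEX GE, and wild-type GE wholly below E-OEX LE. On the deposited scale E-OEX GE replicate 1, at 101, lay above wild-type LE replicates 1 and 3, at 87.0 and 89.4, so there these groups overlapped. The same rescaling put Myl3 at 74.4 ± 14.7 in wild-type LE, 3.79 ± 0.840 in E-OEX GE and 3.53 ± 1.13 in wild-type GE, whose ranges overlapped. Over the 15 libraries, which share their depth with both genes, Pearson's r of Myl3 with Tnnt2 was 0.54 on log2(rescaled value + 1), given as a description.

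In LE, E-OEX held less of both genes than the wild type. Rescaled together, Myl3 was at least 21.1-fold lower, a bound set by 3 reads per E-OEX library. Tnnt2 was 7.97-fold lower, at 14.9 ± 6.09 against 119 ± 35.4 (n = 3 each). Neither gene's groups overlapped, as held for 14.8% of the 2600 genes tested in this direction. Leaving out wild-type LE replicate 2, which had the most Tnnt2 reads and with 7743 the highest stromal marker sum of the LE libraries, gave a Tnnt2 difference of -2.72 on the log2(value + 1) scale, against -2.95 with it.

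Few of the other sarcomeric genes could be tested in that comparison. Of 59 other sarcomeric genes in 3 lists (thick filament, thin filament, and Z-disc with titin), 10 could be tested and 1 passed limma's test at an adjusted p under 0.05, a share close to the 10.7% of all genes tested (5.54% lower in E-OEX). That gene was Actn2, the muscle alpha-actinin that anchors thin filaments in the Z-disc, which fell by 2.12 on the log2 scale (SE 0.50, limma adjusted p = 0.0263). Its wild-type LE libraries held 161, 164 and 201 reads and its E-OEX LE libraries 66, 35 and 50. The call was lost in 4 of 6 fits that left out 1 library (wild-type LE replicate 2 or 3, E-OEX LE replicate 1 or 2). The median of the 10 log2 differences was 0.23, against -0.09 over all genes tested. Tnni2, the fast skeletal troponin I, held 44, 181 and 56 reads in LE of the wild type and 170, 101 and 73 in LE of E-OEX. Its groups overlapped, whereas those of Tnnt2 did not. Of 5 targets of Notch signalling tested in the same libraries, 2 rose, where 133 of all 2600 genes tested did. They were Hey1, by 3.83 (SE 0.62), and Heyl, by 4.38 (SE 0.71), with limma adjusted p = 0.00647 for each.

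U-OEx LE, which was compared with the same wild-type libraries, also held less of both genes. Myl3 was at least 20.0-fold lower. Tnnt2 was 4.17-fold lower, at 27.7 ± 10.8 against 116 ± 39.7 (n = 3 each), a log2 difference of -2.05, and -1.79 without wild-type LE replicate 2. The groups did not overlap for either gene, as for 31.2% of the 5950 genes tested in this direction. Between the overexpressing LE groups Tnnt2 was 1.58-fold higher in U-OEx, with overlapping libraries, and Myl3 was at 0 in both.

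Other sarcomeric genes moved in both directions in U-OEx LE. Of 21 tested, 8 rose and 5 fell against the wild type (limma adjusted p under 0.05), where 56.9% of all genes tested passed (29.1% higher and 27.8% lower). Their median log2 difference was 1.02, against 0.09 over all genes. Of the 8 that rose, Obsl1 lost its call in 5 of 6 fits without 1 library (all but wild-type LE replicate 2), Ttn in 4 (wild-type LE replicate 3 or any U-OEx LE library) and Myom1 in 3 (wild-type LE replicate 3, U-OEx LE replicate 1 or 3). With all libraries Obsl1 also lost its call with edgeR (edgeR adjusted p = 0.077) and with DESeq2 (DESeq2 adjusted p = 0.0555). Xirp1, among those that fell, lost it without U-OEx LE replicate 1. Markers of other cells moved in the same libraries. The summed count of 4 immune markers was 3189 to 5490 in U-OEx LE, against 782 to 1437 in wild-type LE, and 3 of the 4 rose (median 1.86). The sum of 6 gland markers was 1011 to 1388 against 45.6 to 93.2, and Foxa2, Lif and Cxcl15 rose while Spink1, Ttr and Prss29 were at 0 in U-OEx LE. The part of immune or gland cells in these differences was not tested. Among the troponins Tnni2 rose by 2.24 (SE 0.48, limma adjusted p = 0.00489), with 365, 407 and 520 reads in U-OEx LE. Tnnc1, the cardiac and slow troponin C, rose from 1, 0 and 1 reads to 18, 15 and 25, which is at least 5.57-fold higher (limma adjusted p = 0.00111). The calcium-binding and inhibitory subunits were thus higher in the same libraries in which Tnnt2, the tropomyosin-binding subunit, was lower. Ankrd1, a stress-responsive titin partner, rose at least 7.38-fold, although its U-OEx LE libraries spread over 4, 50 and 25 reads. Mybpc2, a myosin-binding protein of fast muscle, rose by 2.14 (SE 0.52, limma adjusted p = 0.00844).

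The genes that fell in U-OEx LE included caps and anchors of the thin filament. Tmod1, a tropomodulin that caps the pointed end of thin filaments, held 583, 126 and 604 reads in wild-type LE and 0, 0 and 1 in U-OEx LE, at least 175-fold lower (limma adjusted p = 5.97e-05). Tmod2, a tropomodulin better known from neurons, fell by 7.25 on the log2 scale (SE 0.31, limma adjusted p = 4.93e-06). Actn2 fell by 4.62 (SE 0.50, limma adjusted p = 0.000139) and the giant thin-filament protein gene Neb by 3.46 (SE 0.39, limma adjusted p = 0.000167). Acta1, skeletal actin, was at 0 in all U-OEx LE libraries and at least 3.55-fold lower than in wild-type LE. Of 11 broadly expressed actomyosin genes 5 fell, where 27.8% of all genes did, among them Tmod2 and Tpm4, a nonmuscle tropomyosin, the latter by 1.71 (SE 0.21, limma adjusted p = 0.000284). Of the other 3, Myl12b lost its call in 5 of 6 fits without 1 library (all but wild-type LE replicate 2) and with edgeR, Tmod3 in 4 (wild-type LE replicate 1 or 3, U-OEx LE replicate 1 or 3) and Myl9 without U-OEx LE replicate 1. Against E-OEX LE, 3 of 16 sarcomeric genes passed (15.0% of all genes tested, 6.97% higher and 8.04% lower): Obsl1 and Tnni2 were higher and Actn2 lower in U-OEx. Obsl1 and Tnni2 lost their calls without U-OEx LE replicate 1 or 3, and Actn2 without U-OEx LE replicate 1 or 2.

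**Figure D2:**
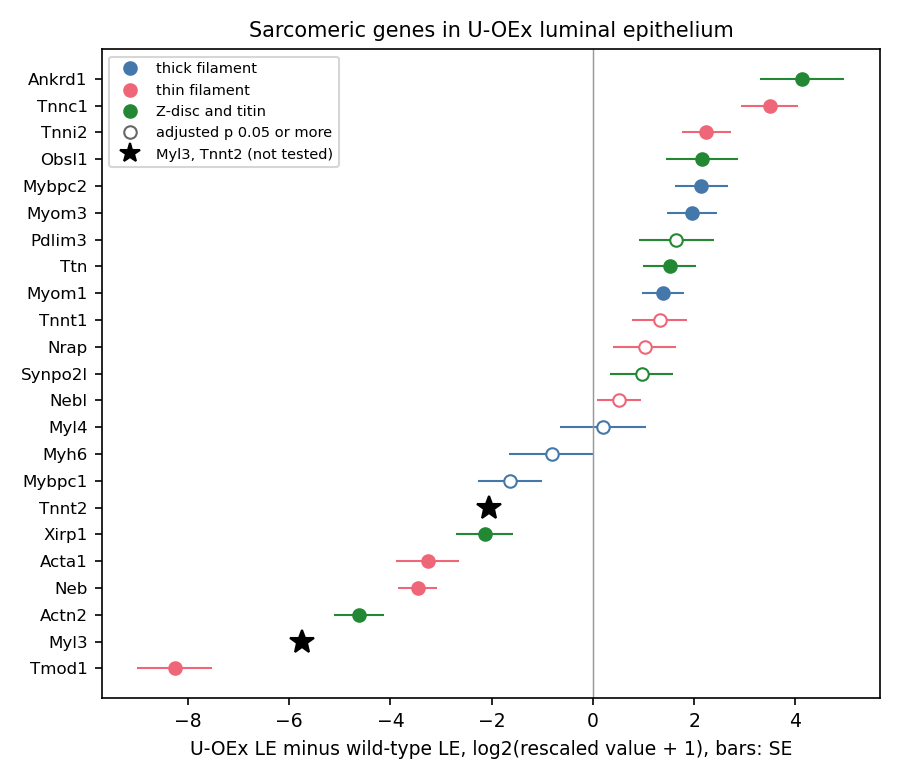
Difference of U-OEx LE from wild-type LE on the log2(rescaled value + 1) scale for 21 sarcomeric genes (points, bars 1 SE, filled where the limma adjusted p was under 0.05) and for Myl3 and Tnnt2 (stars, not tested). Myl3 and Tnnt2 lie on the lower side with Tmod1, Actn2 and Neb, while Ankrd1, Tnnc1 and Tnni2 lie on the higher side.

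The U-OEx tables list 46 of the 59 genes and show which sarcomeric genes had reads in LE at all. Of these, 30 had more than 3 reads in every library and 11 had 3 or fewer in every library. Per kb of exon Tnni2 stood at 266, above 89.2% of 27131 genes with a length. Tnni3, the cardiac troponin I, stood at 38.1 (80, 67 and 107 reads), Tnnc1 at 17.3 and Tnnt2 at 3.56, which is above 32.1% of genes. The light chains had another order. Myl2, the regulatory light chain that pairs with Myl3 in the ventricle, held 0, 0 and 2 reads and Myl1, the fast skeletal essential light chain, 2, 0 and 1. Myl7, the atrial regulatory light chain, held 13, 26 and 39 reads. Myl6, the essential light chain of nonmuscle and smooth muscle myosin, held 4214, 3988 and 4276 reads in the libraries in which Myl3 had none. Of the 8 listed genes of the heart marker list, 4 had more than 3 reads in every U-OEx LE library: Tnni3 and Myl7 above, Mybpc3, a cardiac myosin-binding protein, with 31, 6 and 50, and Myh6, a cardiac myosin heavy chain, with 8, 14 and 8. The other 4 were near 0, with Nppa at 0, 2 and 0, Ryr2 at 1, 0 and 0 and Pln at 5, 1 and 0 reads beside Myl2. Nppb, Actc1 and Nkx2-5 were looked up and not found among the listed genes.

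**Figure D3:**
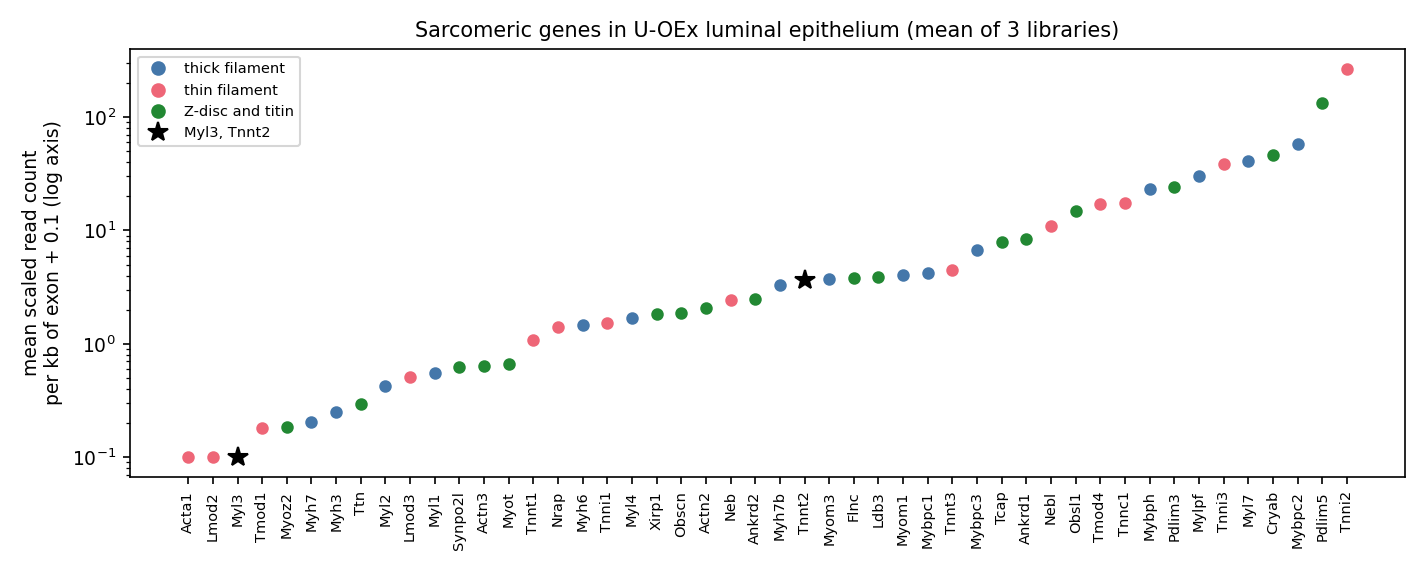
Mean scaled read count per kb of exon plus 0.1 (log axis) in the 3 U-OEx LE libraries for 46 sarcomeric genes and the pair of genes described (stars), in rising order. Tnni2 is at the upper end with 266, Tnnt2 is near the middle with 3.56 and Myl3 is among the genes at 0.

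In GE the overexpression went with more Tnnt2 and no detectable difference in Myl3. Rescaled together, Tnnt2 in GE was 8.02-fold higher in E-OEX than in the wild type, at 62.2 ± 31.1 against 7.75 ± 3.54 (n = 3 each), with no overlap between the groups. Among the 2851 genes tested, 18.6% did not overlap in this direction. Myl3 stood at 5.09 ± 1.17 against 4.93 ± 1.45, and its groups overlapped. At 3 to 7 reads per library a difference in Myl3 smaller than its spread could not be seen.

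Several other sarcomeric genes rose in E-OEX GE. Of 11 tested, 6 rose and 1 fell, so 7 passed where 23.5% of all genes tested did (9.72% higher and 13.8% lower). Their median log2 difference was 1.32, against 0.05 over all genes. On the thin filament, Tnni2 rose from 3, 0 and 3 reads to 35, 31 and 29, at least 8.58-fold (limma adjusted p = 0.00464). Acta1 rose by 2.24 (SE 0.36, limma adjusted p = 0.00218), from 55, 144 and 105 reads to 639, 557 and 488. Tnnt1, the slow skeletal troponin T, held 5, 5 and 9 reads against 18, 17 and 36 and rose by 1.42 (SE 0.45, limma adjusted p = 0.0467). That call was lost in all 6 limma fits without 1 library. With all libraries it was lost with edgeR, with DESeq2 and with a pseudocount of 0.1. On the thick filament, Mybpc1 and Myom1 rose by 2.43 (SE 0.40, limma adjusted p = 0.00222) and 1.84 (SE 0.34, limma adjusted p = 0.00421). Pdlim3, a Z-disc protein also made by smooth muscle, rose by 1.32 (SE 0.32) and Actn2 fell by 2.11 (SE 0.46), and both calls were lost without wild-type GE replicate 1. On the authors' own scale the median log2 difference of all genes in this comparison was 0.50, and 71.6% of the calls were toward E-OEX, where rescaling gave 41.3%.

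Smooth muscle markers moved with these genes in GE. Of 8 smooth muscle markers 6 rose in E-OEX GE, where 9.72% of all genes did, with a median of 1.66 against 0.05 over all genes. Their summed count was 16024 to 20091, against 3324 to 5664 in wild-type GE. The ranges of the groups did not overlap. All marker sums are on the deposited scale, and the log2 differences between genotypes on rescaled reads. On the deposited scale the median log2 difference of all genes was 0.50 toward E-OEX GE. Acta2, smooth muscle actin, rose by 1.65 (SE 0.30) and Myh11, smooth muscle myosin, by 1.66 (SE 0.29), with limma adjusted p = 0.0037 and 0.00333. The actomyosin genes Tpm2, Myl9, Mylk and Cald1, which smooth muscle also uses, and Myocd, a cofactor that drives smooth muscle genes, rose as well. The call of Myocd was lost without wild-type GE replicate 1, and that of Cald1 in 4 of 6 fits without 1 library (wild-type GE replicate 1 or 3, E-OEX GE replicate 2 or 3). The 8 stromal markers had a median log2 difference of 0.16, and their sums overlapped between the GE groups. E-OEX GE replicate 1 held the most Tnnt2 (101 reads), the highest smooth muscle sum (20091) and the highest sum of 5 luminal markers in GE (8690, against 2055 and 2349 in the other E-OEX GE libraries and 818 to 1345 in wild-type GE). Without that library the Tnnt2 difference was 2.47 on the log2 scale, against 2.84 with it. The part of smooth muscle or luminal RNA in the Tnnt2 values was not tested. In LE, Tnnt2 was highest in the wild type. The smooth muscle sum in LE was 126 to 421 in wild-type, 431 to 684 in E-OEX and 373 to 568 in U-OEx libraries. Much of it was Smtn, with 53, 124 and 20 reads in wild-type, 523, 719 and 365 in E-OEX and 276, 452 and 287 in U-OEx LE. The median log2 difference from wild-type LE of the 7 markers tested was -0.94 in E-OEX LE, against -0.09 over all genes. In U-OEx LE, also with 7 tested, it was -1.13, against 0.09. Smtn was called higher in both, and Des and Cnn1 lower in U-OEx LE.

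**Figure D4:**
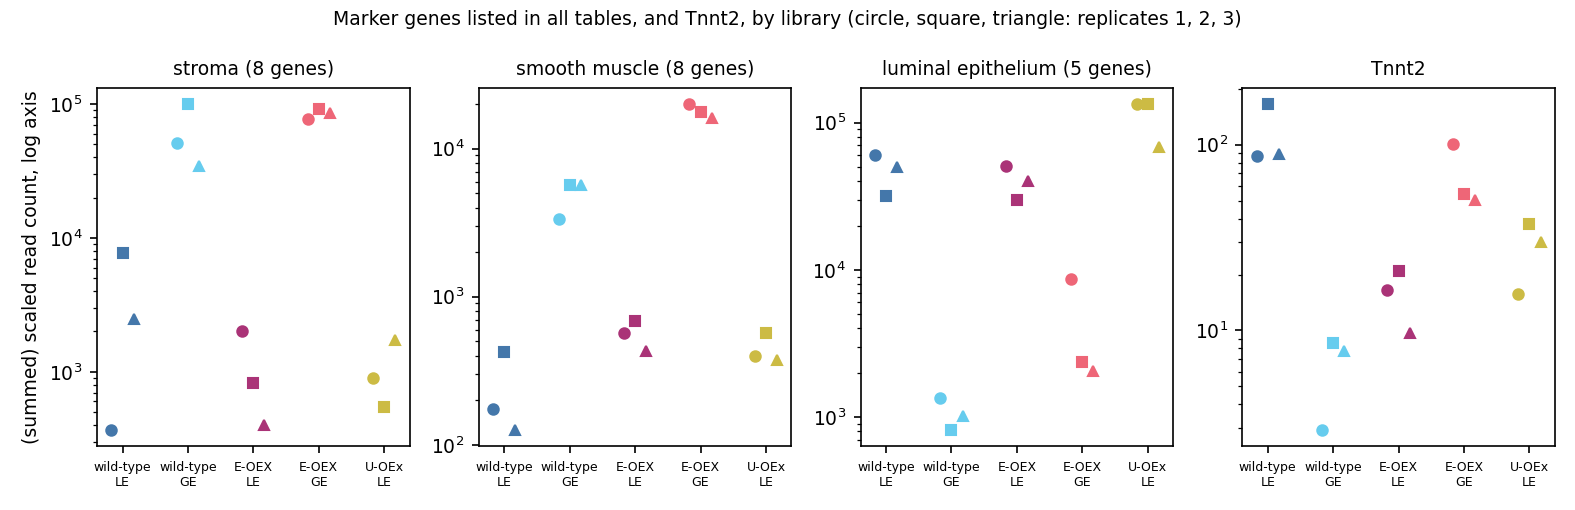
Summed scaled read counts (log axis) of 8 stromal, 8 smooth muscle and 5 luminal marker genes listed in all tables, and the scaled count of Tnnt2, with 1 point per library. E-OEX GE exceeds wild-type GE in the smooth muscle sum and in Tnnt2. Wild-type LE has the highest mean of Tnnt2 (114), and its smooth muscle sum is at most 421. The part of smooth muscle RNA in the Tnnt2 values was not tested.

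Set against each other within a genotype, GE and LE differed in opposite directions for both genes. In the wild type Myl3 was 13.3-fold and Tnnt2 17.8-fold lower in GE. In E-OEX Myl3 was at least 2.01-fold and Tnnt2 4.37-fold higher in GE. The Myl3 value rests on 4, 6 and 7 GE reads, in libraries in which Pth1r, an overlapping gene that shares 95 of its 2925 exonic bases with Myl3, held 315 to 468 reads, against 2 to 4 in LE. The part of Pth1r reads in it was not tested. On TMM-rescaled reads the Tnnt2 difference in E-OEX was 1.35 on the log2 scale, against 2.05 on the deposited scale. The tables list genes selected for such a difference, so 40.0% and 60.5% of all genes had no overlap in the same directions and the listing itself is no result. The difference of differences was 6.15 for Myl3 and 6.04 for Tnnt2 on the log2 scale, given without a test. The size for Myl3 depends on its 0 counts and on the pseudocount of 1.

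In the wild type 21 of 22 sarcomeric genes passed between GE and LE, 12 of them higher in GE and 9 higher in LE, where 97.0% of all listed genes passed (56.6% higher and 40.5% lower in GE). Tmod1 and Tnni2 were, with log2 differences of -5.26 and -5.09, lower in GE as Myl3 and Tnnt2 were. Nrap and Tnnc1 lay on the other side, at 5.81 and 3.92. The troponin genes were thus split in the wild type, with Tnnt2 and Tnni2 higher in LE and Tnnc1 and Tnnt1 higher in GE. For Tnnt1 this rests on 5, 5 and 9 GE reads against 0, 1 and 0 in LE. Its call was lost with DESeq2 (DESeq2 adjusted p = 0.0584). In E-OEX 17 of 17 passed (91.6% of all listed genes, 61.5% higher and 30.1% lower in GE), 13 higher in GE and 4 higher in LE. Acta1 and Tnnt3, the fast skeletal troponin T, differed between GE and LE of E-OEX by at least 200-fold and 11.1-fold, with the higher levels in GE. Of 11 sarcomeric genes tested for an interaction 3 passed, all positive (10.7% of all genes tested, 5.83% positive and 4.91% negative): Acta1 at 4.67 (SE 0.94), Mybpc1 at 4.27 (SE 0.96) and Tnni2 at 3.43 (SE 0.93), with limma adjusted p = 0.00764, 0.0144 and 0.0327. Mybpc1 was, like the pair described, lower in GE in the wild type and higher in GE in E-OEX, with differences of -2.22 and 2.05. Its GE and LE libraries in E-OEX held 106, 65 and 105 against 49, 9 and 24 reads, a difference that did not pass on TMM-rescaled reads (limma adjusted p = 0.0734), with edgeR or DESeq2, or without E-OEX GE replicate 1 or 3. Tnni2 was lower in GE in both genotypes, and its interaction was lost in 7 of 12 fits without 1 library, with a pseudocount of 0.1, with edgeR and on TMM-rescaled reads.

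**Figure D5:**
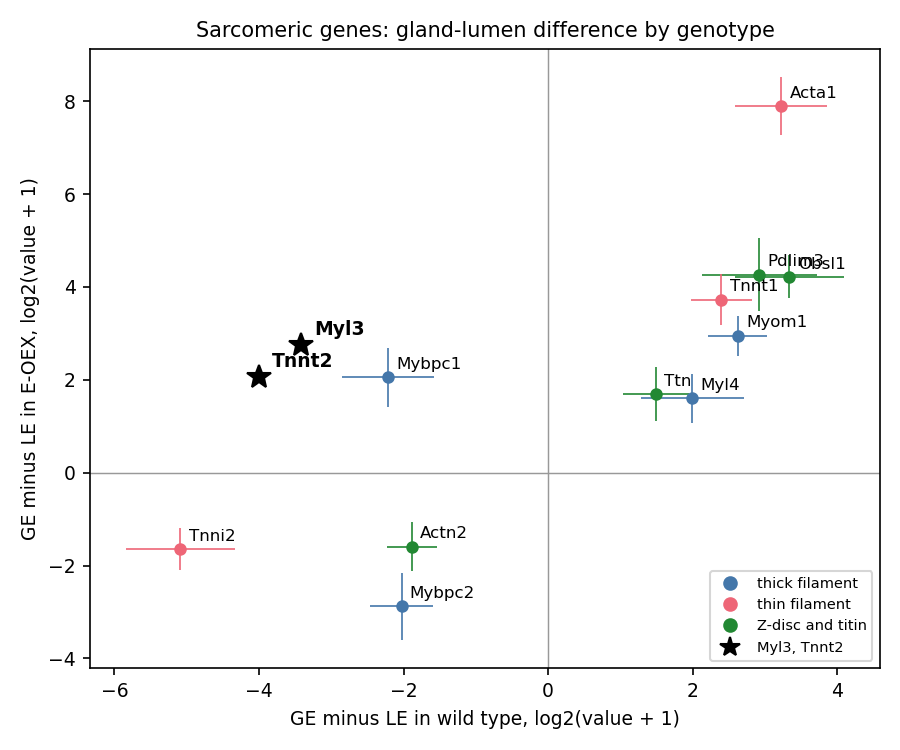
Difference of GE from LE on the log2(value + 1) scale in the wild type (horizontal) and in E-OEX (vertical) for 11 sarcomeric genes listed in both (bars 1 SE) and for Myl3 and Tnnt2 (stars, not tested). Myl3, Tnnt2 and Mybpc1 lie in the upper left, lower in GE in the wild type and higher in GE in E-OEX.

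The regulators listed for striated muscle had few members in the wild-type and E-OEX tables. Against the wild type, 2 of 6 rose in U-OEx LE, Tead2 and Six4, a share close to the 29.1% of all genes tested. In E-OEX LE the log2 difference of Six4 was 1.54 (SE 0.47, limma adjusted p = 0.0661), which did not pass. Against wild-type GE, 2 of 4 rose in E-OEX GE, Myocd and Six4, where 9.72% of all genes tested did. Six4 rose there by 1.2 (limma adjusted p = 0.0309), a call lost in 4 of 6 fits without 1 library. In U-OEx LE Tead2, a TEAD factor, rose by 2.89 (SE 0.51, limma adjusted p = 0.00179), from 112, 49 and 29 reads to 356, 581 and 524. Tead1, Tead3, Srf and Mef2d were read in U-OEx LE, with 1665, 1124, 1331 and 1784 reads in replicate 1. Gata4 was at 0 in all 3, and Myod1, Myog, Tbx5 and Nkx2-5 were looked up and not found among the listed genes. Of 6 Notch targets, 5 rose in U-OEx LE, where 29.1% of all genes did, and Hey2 fell by 3.63 (SE 0.41, limma adjusted p = 0.000167). In E-OEX GE 3 of 5 Notch targets tested rose against wild-type GE, where 9.72% of all genes did: Hey1, Hey2 and Heyl. There Hey2 rose by 3.31 (limma adjusted p = 0.000121), and the call of Heyl was lost in 5 of 6 fits without 1 library.

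The genome around the pair bears on how the reads can be read. In GENCODE M21 (GRCm38) Myl3 spans chr9:110741861-110769798 on the plus strand and overlaps Pth1r, the gene of a parathyroid hormone receptor on the minus strand, over 5285 bases, and 95 of its 2044 exonic bases lie in Pth1r exons. Whether the libraries kept the strand is not given in the sources used here, so reads in those bases cannot be told apart. The Pth1r span reaches to chr9:110747145, upstream of the printed RefSeq window of Myl3 (chr9:110763428-110763677). The shared bases thus belong to the longer GENCODE span and lie before the RefSeq start. Pth1r held 288 to 385 reads in GE of the wild type and 315 to 468 in GE of E-OEX, where Myl3 had 3 to 7. It held 8, 35 and 16 in wild-type LE, where Myl3 was highest, and 2 to 4 in the other LE groups. Tnnt2 (chr1:135836354-135852260, plus strand) lies within 100 kb of Lad1, Pkp1, Tnni1 and Phlda3. Its neighbour Lad1, an epithelial anchoring-filament gene, held 2254, 3112 and 2470 reads in U-OEx LE and 755, 1169 and 540 in wild-type LE. Tnni1, the slow skeletal troponin I, held 2, 10 and 5 reads in U-OEx LE.

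Over the 15 libraries and 2512 genes, the pattern of Myl3 was most like those of Efhd1 (Pearson's r 0.94), Fzd5 (0.94), Ankrd29 (0.93), Ntrk3 (0.92) and Cdkn1c (0.91), on log2(rescaled value + 1). Each was highest in wild-type LE, as Efhd1 at 3631 ± 1386 against 16.0 ± 8.69 in E-OEX LE and 0.862 ± 1.49 in U-OEx LE. Fzd5 encodes a Wnt receptor and Cdkn1c an inhibitor of the cell cycle. The genes most like Tnnt2 were Btg1 (0.84), Pmaip1 (0.82), Cebpa (0.82), Rbm38 (0.79) and Nacad (0.77). Cebpa, a transcription factor gene, stood at 1595 ± 828 in wild-type LE, 238 ± 32.5 in wild-type GE, 370 ± 288 in LE of E-OEX, 677 ± 173 in GE of E-OEX and 1021 ± 357 in LE of U-OEx. The libraries share their groups, so these values describe likeness and carry no test.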

How the data were processed

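RNA was sequenced from 15 libraries of mouse uterine epithelium, and groups and replicate numbers came from the sample titles. The authors' deposited values are a signal: read counts divided by 1 factor per library, as read from the values, which were within 0.01 of a whole read after division by the smallest step. Step-based recovery gave the reads used here. The builds GRCm38 and mm10 are named per the submitters' processing notes. The aligner, the counting tool and the scaling method are not given in the sources used here. Symbols and exonic lengths came from GENCODE M21.

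Genotypes were compared on recovered reads of shared genes after rescaling with TMM (edgeR 4.0.16). Comparisons of GE with LE, and the interaction, used the deposited values. Tests were limma 3.58.1 (trend) on log2(value + 1), for genes with a mean of at least 1, with Benjamini-Hochberg adjustment over all genes tested and a threshold of 0.05. Such log2 differences understate changes of low genes. Only the fit of E-OEX against wild-type LE was also run on simulated counts, with changes in genes well above 3 reads. That run does not bear on genes near 0 reads or on the other comparisons. A group with at most 3 reads in every library was taken as at the floor. Intervals are not given, and floors cover counting error only.

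Alternatives were a pseudocount of 0.1, no filter on low values, edgeR and DESeq2 1.42.0 on the recovered reads, another scaling, the replicate number as a block, and each library left out. Genes were named as the members, up to 4 genes with the largest difference per list and comparison among those past the threshold, the partners among troponins and light chains, the 5 genes most alike, and genes starting within 100 kb. Genes named in passing beyond that rule, among them Tead1, Srf and Mef2d, Myl6, Foxa2, Lif and some of the genes called in a list, were chosen after their values were seen. The members and the gene lists were chosen with earlier results of these data known. Replicates were compared and none was a repeat of another.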

Additional observations from a re-analysis of the deposited data

Results flagged for a closer look

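Myl3 and Tnnt2 differed between GE and LE in opposite directions in the wild type and in E-OEX, with every GE library on one side of every LE library in each genotype. For Myl3 in E-OEX this rests on 4, 6 and 7 GE reads against none in LE, where reads of the overlapping Pth1r (315 to 468 in GE, 2 to 4 in LE) cannot be told apart in 95 shared exonic bases. The tables list genes selected for a difference between GE and LE. Of all listed genes, 40.0% in the wild type and 60.5% in E-OEX had no overlap in the same directions, so the separation itself is no result. The difference of differences was 6.15 for Myl3 and 6.04 for Tnnt2 on the log2(value + 1) scale, and the difference was not tested because the genes were chosen with these values known. Among the other sarcomeric genes Acta1 (4.67), Mybpc1 (4.27) and Tnni2 (3.43) had a GE to LE difference that changed with the genotype in limma's interaction test (limma adjusted p = 0.00764, 0.0144 and 0.0327). Acta1 was higher in GE in both genotypes and Tnni2 higher in LE in both, so for these the size changed and not the direction. For Mybpc1 the values were -2.22 in the wild type and 2.05 in E-OEX, but the latter did not pass with TMM, edgeR or DESeq2 (adjusted p = 0.0734, 0.0998 and 0.199). The interaction of Tnni2 was lost in 7 of 12 fits without 1 library.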

How the results depend on the processing

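Myl3 and Tnnt2 kept their direction under every alternative run in every comparison except E-OEX against wild-type GE, where Myl3 was near 0 (0.44 on the deposited scale, and -0.16 to 0.29 without 1 library). Sizes for Myl3 moved with how its 0 counts were treated. With a pseudocount of 0.1, edgeR and DESeq2, in that order, E-OEX against wild-type LE gave -9.10, -8.86 and -8.41, U-OEx against wild-type LE -9.05, -8.81 and -8.45, GE against LE in E-OEX 5.85, 5.25 and 4.01 (2.48 with TMM), and the interaction 9.53, 9.41 and 8.86. GE against LE in the wild type gave -3.92 (edgeR) and -4.40 (DESeq2) for Myl3 and -4.75 (DESeq2) for Tnnt2. Tnnt2 in E-OEX GE against LE was 1.45 (edgeR), 1.17 (DESeq2) and 1.35 (TMM). DESeq2 called 453 genes and 2 sarcomeric genes between E-OEX and wild-type LE, 501 genes in the interaction and 5 sarcomeric genes between U-OEx and E-OEX LE. Without 1 library, the genes called ranged from 56 to 323 and the sarcomeric genes from 0 to 1 in E-OEX against wild-type LE, from 362 to 720 and 4 to 6 in GE, from 179 to 449 in the interaction, and from 60 to 903 and 0 to 4 in U-OEx against E-OEX LE. Counts over all genes fell by over 1.5 times in E-OEX against wild-type LE without wild-type LE replicate 2 or 3 or E-OEX LE replicate 1 or 2, in GE without wild-type GE replicate 1 or 3, in the interaction without wild-type LE replicate 3, any wild-type GE library or E-OEX GE replicate 2 or 3, and in U-OEx against E-OEX LE without E-OEX LE replicate 2 or 3 or any U-OEx library. Fits that left 2 libraries in a group pooled the spread over groups. Myl4, which passed in none of the comparisons between genotypes, changed sign without 1 library. Its values then ranged from -0.31 to 0.93 in E-OEX against wild-type LE, from -0.47 to 0.09 in GE (0.20 on the deposited scale), from -0.82 to 0.40 in the interaction, and from -0.56 to 0.91 and -0.90 to 0.12 in U-OEx against wild-type and E-OEX LE. Of called genes, 58.6% were higher in E-OEX LE on the deposited scale, against 48.0% after rescaling, and 56.8% were higher in E-OEX GE than in LE with TMM, against 67.2%. The cause of these shifts was not tested. The shared replicate numbers did not pair the libraries (correlations of deviations from -0.25 to 0.22). With the replicate block 292, 718, 6187, 4374, 314, 3182 and 612 genes passed in the 7 comparisons, against 277, 670, 6223, 4491, 315, 3384 and 642 without it. Of the genes named, Tnnt1 and Cald1 in GE and Myom1, Ttn and Myl12b in U-OEx against wild-type LE lost their calls with the block.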
